A study of Mus musculus with 2 samples.

Results

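Nanog is a homeodomain transcription factor that helps hold mouse embryonic stem cells (ESCs) in the pluripotent state. Its binding was examined here around 46 genes of the Wnt signalling pathway, chosen by name for their role: 16 Wnt ligands, the ligand-acylating enzyme Porcn, 14 receptors, 5 genes for beta-catenin and its destruction complex, 4 Tcf/Lef factors and 6 feedback or secreted inhibitors. The list is a selection and not every gene of the pathway. Chromatin from Bruce-4 cells, a mouse ESC line grown in serum medium with leukemia inhibitory factor, was immunoprecipitated with a rabbit monoclonal antibody against Nanog and sequenced (ChIP-seq). The series holds 1 such sample and 1 input sample of the same cells (chromatin without immunoprecipitation), with no treatment and no replicate of either, so no value below has a replicate error. Values come from the peak list of the Nanog sample, which had 8737 distinct intervals, 8735 of them on chromosomes 1 to 19 and X. The list gives positions on mm10 only, so the strength of a peak and the depth of the library are unknown, and a site just under the threshold of the peak call looks the same as an unbound one. No expression data are in this series, so the labelled cell type could not be checked against its marker genes.

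Wnt proteins are secreted lipid-modified ligands that bind Frizzled receptors together with Lrp5 or Lrp6. Without ligand, Apc, Axin and the kinase Gsk3 mark beta-catenin (Ctnnb1) for degradation. With ligand, beta-catenin accumulates and joins Tcf/Lef factors on DNA. In mouse ESCs, Wnt signalling and inhibition of Gsk3 favour self-renewal, and Tcf7l1 (Tcf3 in older work) is known as a repressor at genes of the pluripotency network.

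The first question was how many of the genes had Nanog nearby. Distances run from the centre of a peak to the transcription start site (TSS), the annotated 5' end of the gene. Of the 46 genes, 5 had a peak within 5 kb (10.9%, exact 95% interval 3.62 to 23.6), against 6.25% of all 21755 protein-coding genes. The 5 were Porcn, Sfrp1, Fzd8, Tcf7l1 and Lgr4. Within 50 kb, 23 of 46 had a peak (50.0%, interval 34.9 to 65.1), against 35.2% of protein-coding genes. Within 100 kb the number was 29 (63.0%, interval 47.5 to 76.8), against 54.8%. Each share was higher than the background, and each interval included it. The intervals cover counting error only and treat genes as independent. The genes next to the limits were Lgr4 (4.10 kb) and Fzd10 (7.16 kb) at 5 kb, Tcf7 (47.1 kb) and Znrf3 (50.8 kb) at 50 kb, and Lgr5 (95.5 kb) and Fzd3 (114 kb) at 100 kb.

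**Figure D1:**
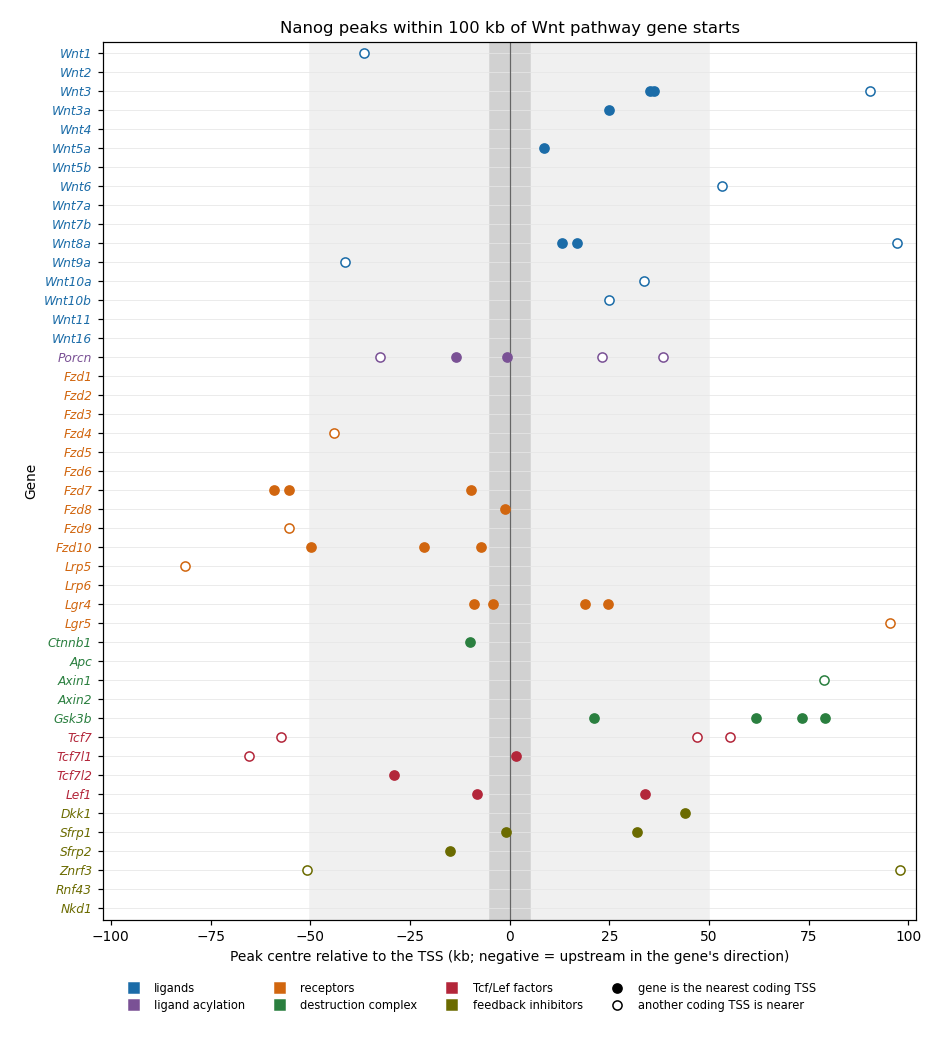
Each row is 1 of the 46 genes, coloured by class, and each circle is a Nanog peak placed by the distance of its centre from the TSS in kb (negative is upstream); grey bands mark 5 and 50 kb, filled circles are peaks for which the gene has the nearest protein-coding TSS, and open circles peaks with a nearer one. All 4 Tcf/Lef factors have a peak inside the 50 kb band, and 17 rows hold no peak. The 9 peaks of Frizzled genes, several of them at Fzd7 and at Fzd10, all lie upstream.

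The median distance from a TSS to the closest peak was 49.0 kb for the 46 genes (quartiles 16.4 and 161 kb) and 85.3 kb for all protein-coding genes (quartiles 30.7 and 203 kb). The exact interval of the first median was 28.9 to 125 kb and included the second. Counting only the wider peaks (at least the median width), these distances were 119.9 and 172 kb. The mean number of peaks within 100 kb was 1.15 per gene, against 1.00 over all protein-coding genes. No peak was found within 100 kb of 17 genes, and 17 others had exactly 1. At least 3 peaks were found at 8 genes (17.4%, interval 7.82 to 31.4), against 11.4% of protein-coding genes. These were Porcn with 5 peaks, Lgr4 and Gsk3b with 4 each, and Wnt3, Wnt8a, Fzd7, Fzd10 and Tcf7 with 3 each.

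**Figure D2:**
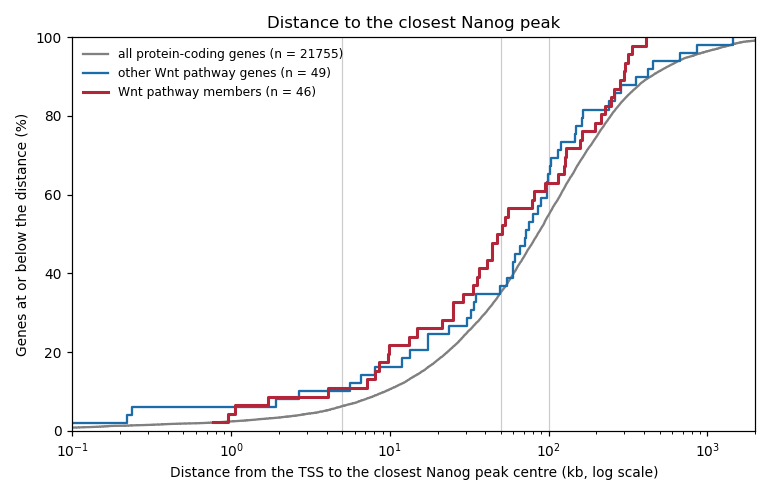
The horizontal axis is the distance from the TSS to the closest Nanog peak centre in kb on a log scale, and the vertical axis the percentage of genes at or below it, for the 46 genes (red), 49 other Wnt pathway genes (blue) and all 21755 protein-coding genes (grey), with thin lines at 5, 50 and 100 kb. The red curve lies above the grey one at each of these limits (10.9% against 6.25%, 50.0% against 35.2%, 63.0% against 54.8%).

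Neighbouring genes can share a peak, so each peak was also given to the protein-coding gene with the nearest TSS. By that count 17 of the 46 genes had a peak of their own within 50 kb (37.0%, interval 23.2 to 52.5), against 18.3% of protein-coding genes. Here the interval lay above the background, which was not matched for the spacing of genes. The 46 genes also stood in sparser surroundings, with a median of 259 kb between the protein-coding TSSs on either side, against 94.2 kb for all protein-coding genes. The part of this spacing in the nearest-gene share was not tested. When genes were split into 3 equal groups by this spacing, the widely spaced group held 29 of the 46. In it, 13 of the 29 had a peak of their own within 50 kb (44.8%, interval 26.4 to 64.3), against 27.2% of protein-coding genes in the same group. In the middle group it was 4 of 14 (28.6%, interval 8.39 to 58.1) against 19.9%, and in the narrowest 0 of 3 against 7.93%. The background itself rose with spacing, from 7.93% to 19.9% and 27.2%. The share of the 46 genes was above it in the wide and middle groups. In all 3 groups the interval, wider with fewer genes, included the background.

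**Figure D3:**
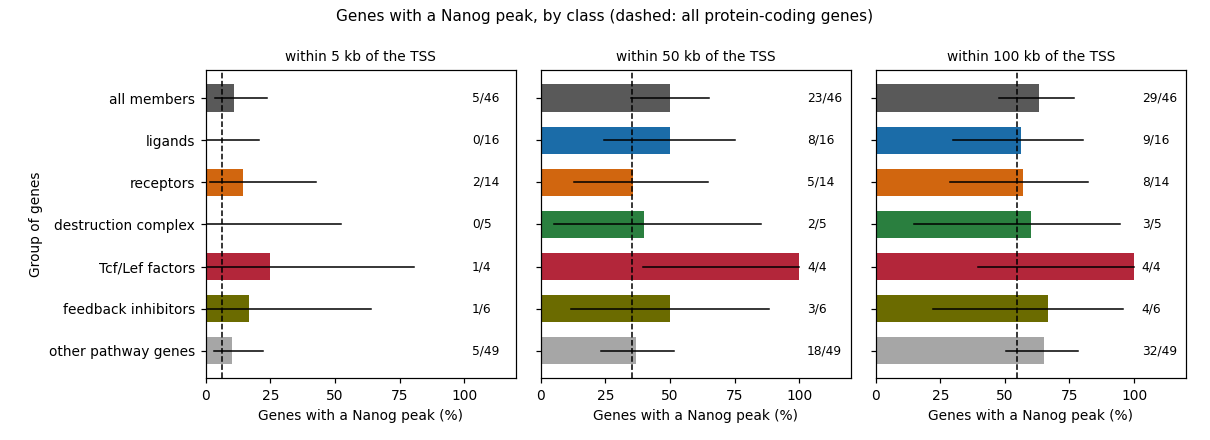
Bars give the percentage of genes in each group with a Nanog peak within 5, 50 or 100 kb of the TSS, black lines the exact 95% interval and the dashed line the value of all protein-coding genes (6.25%, 35.2% and 54.8%). Numbers at the right are genes with a peak over genes in the group; Porcn is counted in all members and has no bar of its own, and the bar of 4 of 4 Tcf/Lef factors has an interval from 39.8% to 100%.

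Among the 16 Wnt ligands, none had a peak within 5 kb of the 5' end of the gene (exact upper limit 20.6%, protein-coding genes 6.25%), 8 had one within 50 kb (50.0% against 35.2%) and 9 within 100 kb (56.3% against 54.8%). With so few genes, none of these counts sets the ligands apart from the background. Wnt5a, a ligand of mostly beta-catenin-independent signalling, had the closest, centred 8.59 kb downstream of the TSS in a coding exon, on chromosome 14 from 28513218 to 28513452, and 1884 bp from the start of another annotated transcript of the gene. Wnt8a had 3 peaks, 2 of them between genes at 13.1 and 17.0 kb past its TSS (chromosome 18, 34555242 to 34555600 and 34559152 to 34559445), and a further one 97.2 kb away in an intron of Cdc23. Wnt3, which is needed to form the primitive streak, had 2 peaks in its own introns at 35.3 and 36.1 kb (chromosome 11, 103809222 to 103809593 and 103810133 to 103810367) and one at 90.5 kb in an intron of Nsf. No peak lay within 100 kb of 7 ligands. Their closest peaks lay at 125 kb for Wnt5b, 161 kb for Wnt4, 195 kb for Wnt2, 213 kb for Wnt7b, 259 kb for Wnt7a, 302 kb for Wnt16 and 337 kb for Wnt11.

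Among the ligands with a peak, 6 stand in 3 neighbouring pairs, and each pair was counted from a single peak. Wnt3a and Wnt9a shared the peak on chromosome 11 from 59265478 to 59266030, which is 553 bp wide, lies in an intron of Wnt3a and is 25.0 kb from the Wnt3a TSS and 41.2 kb from that of Wnt9a. Wnt6 and Wnt10a shared the intergenic peak on chromosome 1 from 74824922 to 74825284, at 53.2 and 33.6 kb, with Cdk5r2 the nearest protein-coding gene. Wnt1 and Wnt10b shared the peak on chromosome 15 from 98753112 to 98753434, at 36.6 and 24.9 kb, in an intron of Arf3, whose TSS was nearer. The 9 ligands with a peak therefore rest on 10 distinct peaks, of which 6 had a Wnt gene as the nearest protein-coding gene. With each such pair taken as 1 locus, 21 of 43 loci had a peak within 50 kb (48.8%).

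Porcn (ENSMUSG00000031169.13), the membrane enzyme that attaches the lipid without which Wnt proteins are not secreted, had the closest peak of the 46 genes. That peak, on chromosome X from 8207106 to 8207479, was centred 767 bp upstream of the TSS, between genes. Another 4 lay within 50 kb: at 13.4 kb upstream (8219650 to 8220164, 515 bp wide), at 32.5 kb upstream in an untranslated region of Ftsj1, and at 23.1 and 38.4 kb downstream, where Tbc1d25 had the nearer TSS. Porcn was thus the nearest protein-coding gene of 2 of its 5 peaks.

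The peaks within 5 kb of a TSS are the ones closest to promoters, so the central bases of 4 of these 5, all but the Fzd8 peak, are shown (mm10, up to 300 bases inside the peak). Capitals mark copies, on either strand, of the motifs searched: Tcf/Lef CTTTGAA or CTTTGAT, Sox CCATTGT or CCTTTGT, Nanog core CCATTA, Oct octamer ATGCAAAT, Klf GCCNCNCCC and Esrrb TCAAGGTCA. The Tcf/Lef words and the Sox word CCTTTGT share the letters CTTTG but differ at the next base, so 1 stretch cannot match both on the same strand. Only forms with A after CTTTG were searched as Tcf/Lef words, so CTTTGT is never marked as Tcf/Lef. With a C before it, CTTTGT counts as a Sox word. Likewise the Sox word CCATTGT and the Nanog word share CCATT.
Porcn peak, chrX:8207143-8207442, plus strand: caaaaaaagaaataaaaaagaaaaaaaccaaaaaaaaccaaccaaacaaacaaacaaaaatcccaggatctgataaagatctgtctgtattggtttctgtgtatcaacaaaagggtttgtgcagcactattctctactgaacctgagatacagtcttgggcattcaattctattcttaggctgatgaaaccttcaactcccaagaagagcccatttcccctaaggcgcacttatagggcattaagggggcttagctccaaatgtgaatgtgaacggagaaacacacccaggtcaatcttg
Lgr4 peak, chr2:109913423-109913669, plus strand: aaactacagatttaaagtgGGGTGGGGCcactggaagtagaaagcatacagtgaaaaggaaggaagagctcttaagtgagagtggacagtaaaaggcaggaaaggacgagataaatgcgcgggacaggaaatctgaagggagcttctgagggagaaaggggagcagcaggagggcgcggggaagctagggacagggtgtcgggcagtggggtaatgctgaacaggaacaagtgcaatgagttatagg
Tcf7l1 peak, chr6:72787391-72787690, plus strand: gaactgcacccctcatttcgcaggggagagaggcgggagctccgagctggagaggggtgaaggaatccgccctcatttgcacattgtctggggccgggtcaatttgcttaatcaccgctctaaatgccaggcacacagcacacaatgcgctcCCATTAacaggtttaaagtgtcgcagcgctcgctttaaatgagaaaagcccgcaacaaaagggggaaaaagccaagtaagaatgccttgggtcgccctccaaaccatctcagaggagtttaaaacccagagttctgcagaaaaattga
Sfrp1 peak, chr8:23410402-23410701, plus strand: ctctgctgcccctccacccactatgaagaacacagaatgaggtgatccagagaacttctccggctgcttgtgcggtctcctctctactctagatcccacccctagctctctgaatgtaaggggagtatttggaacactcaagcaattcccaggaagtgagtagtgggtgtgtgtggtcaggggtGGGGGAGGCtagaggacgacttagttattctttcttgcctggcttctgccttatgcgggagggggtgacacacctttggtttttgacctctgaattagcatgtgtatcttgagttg
The Lgr4 and Sfrp1 stretches each hold 1 Klf word and the Tcf7l1 stretch 1 Nanog core word. None of the 6 motifs occurs in the Porcn stretch, which says only that these letters are not in this window.

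Of the 14 receptors, 2 had a peak within 5 kb, 5 within 50 kb and 8 within 100 kb, against the background of 6.25%, 35.2% and 54.8%. Lgr4 (ENSMUSG00000050199.13), a receptor for the R-spondins that amplify Wnt signalling, had 4 peaks, and it was the nearest protein-coding gene for all of them. They were centred 4.10 and 8.90 kb upstream of the TSS (chromosome 2, 109913423 to 109913669 and 109908595 to 109908908) and 18.9 and 24.6 kb downstream in its introns (109936334 to 109936750 and 109942119 to 109942473). The peak at 4.10 kb lay 227 bp from the start of Platr8, a noncoding transcript on the opposite strand, and the one at 8.90 kb lay in an intron of Platr8. Lgr5, the other R-spondin receptor of the list and a stem cell marker of the adult gut, had 2 peaks, both in its introns, 95.5 and 119 kb from the TSS. For both, the TSS of A930009A15Rik, which lies between them and the Lgr5 TSS, was nearer than that of Lgr5. The peak at 95.5 kb was, however, 29200 bp from the start of another annotated Lgr5 transcript, against 77707 bp from the A930009A15Rik TSS.

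Among the 10 Frizzled genes, 4 had a peak within 50 kb and 5 within 100 kb, near the 35.2% and 54.8% of protein-coding genes. Fzd8 (ENSMUSG00000036904.6) had 1 peak, centred 1065 bp upstream of the TSS on chromosome 18 from 9210934 to 9211262, between genes. Its centre fell in a soft-masked repeat. Fzd10 had 3, at 7.16, 21.4 and 49.9 kb upstream (chromosome 5, 128593532 to 128593845, 128579272 to 128579533 and 128550797 to 128551070), the first 2 in introns of the noncoding gene 5930412G12Rik. Fzd7, a Frizzled receptor long linked to ESC maintenance, also had 3, at 9.71, 55.3 and 59.1 kb upstream (chromosome 1, 59472582 to 59472838, 59426941 to 59427212 and 59423131 to 59423497). For Fzd7, Fzd8 and Fzd10 every one of these peaks had the Frizzled gene as its nearest protein-coding TSS. Fzd4 had a peak at 43.9 kb in an intron of Tmem135, and Fzd9 one at 55.4 kb in an intron of Fkbp6. All 9 peaks within 100 kb of a Frizzled gene lay upstream of it, while over the 46 genes 25 gene and peak pairs were upstream and 28 downstream. The 9 come from 5 genes, with 3 each at Fzd7 and Fzd10, so they are not 9 separate observations. The difference in direction was not tested. The closest peaks of the remaining Frizzled genes lay at 114 kb for Fzd3, 158 kb for Fzd2, 227 kb for Fzd6, 283 kb for Fzd1 and 299954 bp for Fzd5.

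Neither Wnt co-receptor had a peak within 50 kb. The closest to Lrp5 was centred 81.5 kb upstream, in an untranslated region of Kmt5b and 632 bp from the Kmt5b TSS. The closest to Lrp6 lay at 128 kb.

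The genes for beta-catenin and its destruction complex had no peak within 5 kb (exact upper limit 52.2%, protein-coding genes 6.25%). Of the 5 genes, 2 had one within 50 kb (40.0% against 35.2%) and 3 within 100 kb (60.0% against 54.8%), near the background. Gsk3b (ENSMUSG00000022812.14), which encodes a kinase that phosphorylates beta-catenin, had 4 peaks. All were in its introns on chromosome 16, at 21.2 kb (38109989 to 38110381), 61.9 kb (38150749 to 38150983), 73.3 kb (38162115 to 38162428) and 79.2 kb (38168098 to 38168344) from the TSS, and Gsk3b was their nearest protein-coding gene. Ctnnb1 (ENSMUSG00000006932.17) had a single peak, between genes and 9.87 kb upstream (chromosome 9, 120919211 to 120919488). The scaffold gene Axin1 had one at 78.8 kb in an intron of Fam234a (chromosome 17, 26217341 to 26217604), with 3 other protein-coding TSSs in between. This peak was 29319 bp from the start of another annotated Axin1 transcript. The other scaffold gene Axin2, a widely used target gene of the pathway, was the farthest of the 46, with its closest peak 411 kb away, and the closest to Apc lay at 128 kb.

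The Tcf/Lef factors, which carry the signal to DNA, were, of the 5 classes with more than 1 gene, the one in which each gene had a peak within 50 kb: 4 of 4 (interval 39.8 to 100%), against 35.2% of protein-coding genes. With 4 genes this count is small, and no difference between classes was tested. Tcf7l1 (ENSMUSG00000055799.13) had the closest, centred 1714 bp downstream of the TSS in an intron (chromosome 6, 72787294 to 72787787, 494 bp wide) and 1058 bp from the start of another of its transcripts. Another 2 peaks lay deep in its introns, at 111 and 133 kb, and one 65.3 kb upstream was nearer to Kcmf1. Lef1 (ENSMUSG00000027985.14) had peaks 8.08 kb upstream (chromosome 3, 131102194 to 131102596) and 33.9 kb downstream in an intron (131144247 to 131144497). Tcf7l2 (ENSMUSG00000024985.19) had one 28.9 kb upstream (chromosome 19, 55712743 to 55713052), and another in an intron at 154 kb. Tcf7 (ENSMUSG00000000782.15) had 3 peaks. Those at 47.1 kb (chromosome 11, 52235780 to 52236069) and 55.3 kb (52227552 to 52227858) lay downstream of the TSS. The last lay 57.4 kb upstream (52340108 to 52340811, at 704 bp the widest peak near any of the 46 genes). For none of these was Tcf7 the nearest protein-coding gene: Skp1a was nearer to the first 2 and Vdac1 to the last. By nearest gene the class had 3 of 4.

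The 6 inhibitors had 1 gene with a peak within 5 kb, 3 within 50 kb and 4 within 100 kb, beside 6.25%, 35.2% and 54.8% of protein-coding genes. Sfrp1 (ENSMUSG00000031548.7), a secreted Frizzled-like protein that binds Wnt ligands, had a peak centred 951 bp upstream of the TSS (chromosome 8, 23410381 to 23410721) and another 32.0 kb downstream in an intron (23443377 to 23443679). Its relative Sfrp2 had one 14.8 kb upstream (chromosome 3, 83751284 to 83751711), and Dkk1, which blocks Lrp5 and Lrp6, one 43.9 kb downstream (chromosome 19, 30505547 to 30505897). The 3 had no nearer protein-coding neighbour at these peaks. Of the ubiquitin ligases that remove Frizzled receptors from the membrane, Znrf3 had peaks at 50.8 and 98.0 kb. The first had Xbp1 as a nearer neighbour. The second lay in an intron of Znrf3 but nearer to the Kremen1 TSS. It was 34870 bp from the start of another annotated Znrf3 transcript. The closest peak to Rnf43 lay at 246 kb. For Nkd1, an intracellular antagonist, it lay at 315 kb.

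A set of 3 distal peaks was chosen, after their values were seen, to show motifs in distal peaks of genes just described (mm10, the central 300 bases, capitals as above): the closest peaks of Sfrp2, Tcf7l2 and Lef1.
Sfrp2 peak, chr3:83751348-83751647, plus strand: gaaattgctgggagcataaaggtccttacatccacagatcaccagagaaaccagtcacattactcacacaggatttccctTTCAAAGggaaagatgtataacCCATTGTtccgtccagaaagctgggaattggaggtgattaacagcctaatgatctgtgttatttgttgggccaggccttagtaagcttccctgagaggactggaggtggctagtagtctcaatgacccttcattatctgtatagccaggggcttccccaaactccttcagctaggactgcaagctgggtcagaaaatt
Tcf7l2 peak, chr19:55712748-55713047, plus strand: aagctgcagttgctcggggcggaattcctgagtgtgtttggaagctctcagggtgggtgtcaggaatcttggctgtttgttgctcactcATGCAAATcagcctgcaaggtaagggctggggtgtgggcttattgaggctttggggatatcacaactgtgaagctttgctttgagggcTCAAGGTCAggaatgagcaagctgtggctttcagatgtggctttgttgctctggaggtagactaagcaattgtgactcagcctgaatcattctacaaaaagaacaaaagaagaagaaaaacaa
Lef1 peak, chr3:131102246-131102545, plus strand: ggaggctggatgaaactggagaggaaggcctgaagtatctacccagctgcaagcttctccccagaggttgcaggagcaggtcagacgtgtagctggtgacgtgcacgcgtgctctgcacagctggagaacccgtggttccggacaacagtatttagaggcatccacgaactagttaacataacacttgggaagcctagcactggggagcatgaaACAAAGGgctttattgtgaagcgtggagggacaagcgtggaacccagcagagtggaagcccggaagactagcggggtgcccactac
The Sfrp2 stretch holds a Tcf/Lef word and a Sox word, the Tcf7l2 stretch an Oct octamer and an Esrrb word, and the Lef1 stretch a Sox word.

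Together, 50 distinct peaks lay within 100 kb of the 46 genes, in 53 pairs of gene and peak. Their median width was 314 bp (235 to 704 bp), beside 319 bp for all peaks. The smallest width among all peaks was 235 bp, and 3 of the 50 had it. These were the Wnt5a peak and the peaks at 36.1 kb from Wnt3 and 61.9 kb from Gsk3b. Introns held 27 of the 50 centres (54.0%, all peaks 47.5%), intergenic sequence 20 (40.0%, all peaks 46.3%), untranslated regions 2 and coding exons 1. For 32 of the 50, one of the 46 genes had the nearest protein-coding TSS. A peak centred inside the gene itself was found for 11 of the 46 (23.9%, interval 12.6 to 38.8), against 13.2% of protein-coding genes; the median length of the 46 genes was 31.0 kb and that of all protein-coding genes 17.4 kb. How far length accounts for this share was not tested.

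Motifs were not part of how the genes were chosen, so they were counted in windows of 300 bp around the centres of these 50 peaks, of all 8735 peaks, and of 17248 flanking windows starting 1 kb beyond a peak. The Tcf/Lef words were found in 5 of the 50 windows (10.0%, interval 3.33 to 21.8), in 15.6% of all peaks and in 12.4% of flanks. In these 50 windows the Tcf/Lef words searched were at a lower share than in Nanog peaks as a whole, and the interval included the latter share. Forms with CTTTGT were not searched as Tcf/Lef words, so the count does not cover every possible site of these factors. The 5 were near Fzd4, Gsk3b (at 79.2 kb), Sfrp1 (at 32.0 kb), Sfrp2 and Znrf3 (at 98.0 kb). The Sox words were found in 18 windows (36.0%, interval 22.9 to 50.8), beside 26.7% of all peaks and 10.4% of flanks. The Klf word was found in 15 (30.0%, interval 17.9 to 44.6), beside 18.2% and 5.57%. For the Oct octamer the count was 5 (10.0%, interval 3.33 to 21.8), beside 5.36% and 1.93%, for the Nanog core word 6 (12.0%, interval 4.53 to 24.3), beside 16.0% and 11.4%, and for Esrrb 2 (4.00%, interval 0.488 to 13.7), beside 3.25% and 1.07%. For each of the 6 motifs the interval included the share of all peaks. For Sox, Klf and the Oct octamer it lay above the share of flanks, but for the octamer this did not hold in the 34 peaks within 50 kb, of which 2 had it (5.88%, interval 0.720 to 19.7). None of the 6 was present in 13 of the 50 windows, and 13 held 2 or more. Among 32851 RefSeq promoter windows of the same length (GRCm38.p6), 8.65% held the Tcf/Lef words, 9.28% the Sox words, 7.73% the Nanog core word, 1.74% the octamer, 25.8% the Klf word and 0.423% the Esrrb word. The median GC content was 49.2% in the 50 windows and 47.7% in those of all peaks.

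**Figure D4:**
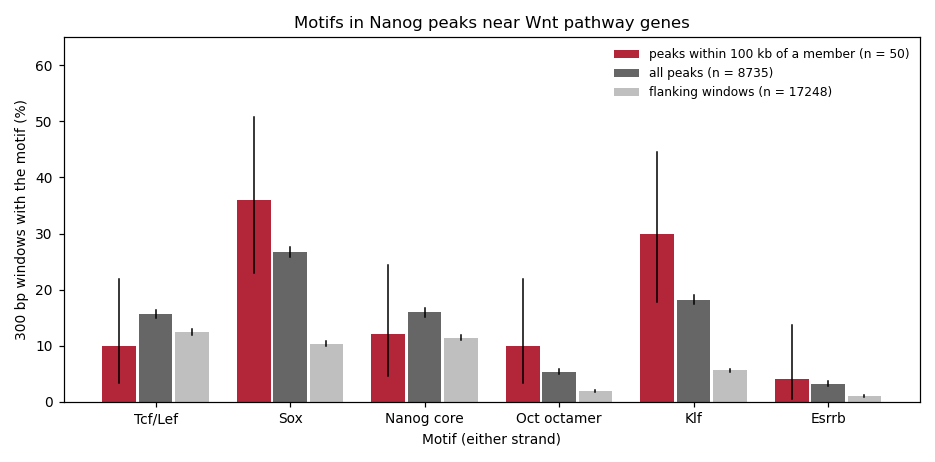
Bars give the percentage of windows of 300 bp that hold each motif on either strand, for the 50 peaks within 100 kb of the 46 genes (red), all 8735 peaks (dark grey) and 17248 flanking windows (light grey); black lines are exact 95% intervals. The red intervals of all 6 motifs span the dark grey value, and the red Tcf/Lef bar (10.0%) is lower than that of all peaks (15.6%).

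A further 49 genes of the pathway, listed with the 46 but not among them, were counted in the same way. Within 5 kb of the TSS 5 of them had a peak (10.2%, interval 3.40 to 22.2, background 6.25%), within 50 kb 18 (36.7%, interval 23.4 to 51.7, background 35.2%) and within 100 kb 32 (65.3%, interval 50.4 to 78.3, background 54.8%). The 5 were Dkk3 at 76 bp, Gsk3a at 222 bp, Tle4 at 239 bp, Wls at 1924 bp and Notum at 2674 bp. Wls carries lipid-modified ligands to the cell surface, and Notum removes the lipid outside the cell. Gsk3a encodes the second Gsk3 kinase. Tle4 and Tle3 encode co-repressors that bind Tcf/Lef factors, and each had 6 peaks within 100 kb, more than any of the 46 genes. As a group the 49 were not rich in such genes. At least 3 peaks within 100 kb were found at 3 of them (6.12%, interval 1.28 to 16.9), against 11.4% of protein-coding genes.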

How the data were processed

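Nanog ChIP-seq of Bruce-4 ESCs gave 1 immunoprecipitated and 1 input sample; the input has no file here and was not analysed. Per the study's methods and the labels, reads were checked with FastQC, aligned to mm10 with Bowtie2, filtered with BEDtools and SAMtools (low quality, duplicates, blacklisted and mitochondrial reads), and peaks were called with MACS2. The call threshold, and whether the input was its control, are not given in the sources used here. The authors deposited 8860 lines of chromosome, start and end in base pairs, with no score, so depth is unknown; 123 repeated lines were counted once.

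Genes and TSSs came from GENCODE vM21 and sequence from GRCm38.p6, the assembly of mm10. All 46 genes matched by symbol. Background genes were all 21755 that are protein-coding on the autosomes and chromosome X. Positions are 1-based. Shares carry exact 95% Clopper-Pearson intervals, and the median an exact order-statistic interval. No p-value was computed, since there is no replicate. Peaks were annotated by their central position. Genes named with coordinates were those with a peak within 5 kb, those with 3 or more peaks within 100 kb, and the closest peaks of Tcf/Lef and destruction-complex genes; others were added after their values were seen, as were 3 of the 7 printed sequences. The genes, lists and motifs were chosen with earlier results of these data known. Counting was tested on simulated peaks. Python 3.11.15, scipy 1.17.1 and pysam 0.24.0 were used. Alternatives covered distance, start sites, peak lists, gene assignment, classes and motif windows.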

Additional observations from a re-analysis of the deposited data

How the results depend on the processing

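The alternatives gave 83 values, of which 74 lay inside the reported interval (or within 1.5 times a count) and 9 did not. Some of the 74 could not differ. No peak near the 46 genes was on 2 lines, so counting every line left their values as they were. Merging peaks within 300 bp also left them the same. All 9 came from the wider peaks or from the assignment to the nearest gene. Peaks at or above the median width only leave fewer peaks. With them, 34.8% of the 46 genes had a peak within 50 kb (protein-coding genes 20.3%) and 45.7% within 100 kb (34.8%). The mean number within 100 kb was 0.587 per gene (0.491). The counts within 50 kb were 2 receptors, 1 gene of the destruction complex and 2 Tcf/Lef factors. The median distance to the closest peak was 119.9 kb (172 kb) and stayed inside its reported interval of 28.9 to 125 kb. With each peak given to its nearest protein-coding gene only, 37.0% had a peak within 100 kb (21.4%), the mean number was 0.696 (0.303) and 4 ligands had a peak within 50 kb. The median distance has no value under that assignment, since most of the genes then have no peak. With the TSS of any transcript, 63.0% had a peak within 50 kb (interval 47.5 to 76.8, protein-coding genes 39.3%) and 15.2% within 5 kb (9.41%). The counts within 50 kb were then 10 ligands, 7 receptors, 3 genes of the destruction complex, 4 Tcf/Lef factors and 4 inhibitors. At 50 kb the interval excluded the background with the TSS of any transcript, with the wider peaks (21.4 to 50.2) and by nearest gene. It included the background in the reported count. None of these backgrounds was matched for the spacing of genes. By nearest gene, the interval within each spacing group included the background of that group. Taking neighbouring Wnt genes as 1 locus was added after seeing the data. No paired analysis was possible because the series has a single peak list, which also leaves no replicate to omit. Sites under the call threshold and the depth of the library cannot be read from the list.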

Other observations

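Several peaks counted for these genes sat next to the start of another gene. The peak 4.10 kb upstream of Lgr4 was 227 bp from the start of the processed transcript Platr8, the peak 50.8 kb upstream of Znrf3 was 227 bp from the start of the processed pseudogene Gm11962, and the peak 81.5 kb upstream of Lrp5 was 632 bp from the start of the protein-coding gene Kmt5b. Some introns also held peaks past the 100 kb limit: at 111 and 133 kb in Tcf7l1, 119 kb in Lgr5 and 154 kb in Tcf7l2. Peak centres fell in soft-masked repeats for 8 of the 50 peaks (16.0%, all peaks 20.4%). These were the Fzd8 peak, the peak shared by Wnt3a and Wnt9a, and the Fzd10 peaks at 7.16 and 21.4 kb. The others lay at 36.1 kb from Wnt3, 17.0 and 97.2 kb from Wnt8a and 79.2 kb from Gsk3b. None of the 50 was among the intervals listed on 2 lines.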
